A study of Sus scrofa with 8 samples.

Results

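The 47 proteasome genes described here are the liver transcripts whose symbol begins with PSMA, PSMB, PSMC, PSMD, PSME, PSMF or PSMG, and they were taken by that rule from the 20430 genes of the expression table. They comprise the 7 alpha ring genes and the 7 constitutive beta ring genes of the 20S core, 5 interferon-inducible genes (*PSMB8*, *PSMB9*, *PSMB10*, *PSME1* and *PSME2*), 6 ATPases and 11 other subunits of the 19S regulatory particle, 3 chaperones of the 19S base, 4 chaperones of the 20S core and 3 further activators or inhibitors. The remaining gene, *PSMC3IP*, entered by the first letters of its symbol: it encodes a partner of the meiotic recombinases and is not a proteasome subunit. All 47 reached a mean of 0.1 FPKM, the level required for testing. *PSMA8* and *PSMB11*, the testis and thymus forms of core subunits, were not analysed here.

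The squalene group was 12 male Large White x Landrace pigs with dietary steatohepatitis (NASH) whose steatotic diet, rich in saturated fat, fructose, cholesterol and cholate and poor in choline and methionine, contained 0.5% squalene during its last month. The control group was 12 male pigs of the same cross on that steatotic diet without squalene, and both groups had already eaten it for 1 month beforehand. The age of the pigs was not given in the sources used here, and no pigs on standard feed were among the samples, so no level below is that of a healthy liver. Equal amounts of liver RNA from 3 pigs were combined, which gave 4 squalene and 4 control pools, and the pool was the replicate. Values are FPKM, fragment numbers corrected for the length of the gene and the size of the library, so levels can be compared approximately between genes and between pools. They are not corrected for differences in composition between pools. Albumin made up between 4.36% (control pool 2) and 9.04% (squalene pool 4) of the summed FPKM.

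The proteasome is the protease that degrades ubiquitinated proteins in the cytosol and nucleus. Its 20S core is a stack of rings, with alpha rings that form the gate and beta rings that hold the catalytic sites, and the 19S particle recognises, unfolds and feeds the substrates. Under interferon, the catalytic beta subunits *PSMB5*, *PSMB6* and *PSMB7* are replaced in newly made cores by *PSMB8*, *PSMB9* and *PSMB10*, which gives the immunoproteasome, and the 11S activator made of *PSME1* and *PSME2* becomes more abundant. The peptides made by these forms are carried by *TAP1* and *TAP2* to MHC class I molecules, and in the liver both hepatocytes and immune cells can express them.

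Depth was estimated at 17.7 to 19.3 M fragments for the squalene pools and 16.6 to 22.2 M for the control pools. Squalene pool 1 stood apart from the others. Its mean correlation with the other pools across genes was 0.977, whereas the other 7 pools had values between 0.981 and 0.984. In it the 22 interferon-stimulated antiviral genes that were checked summed to 8963 FPKM, against 2741 to 3333 FPKM in squalene pools 2 to 4 and 2476 to 3855 FPKM in the control pools. *IFI6* and *CXCL10* were the most abundant of them. Results for which this pool changed the sign or the size are therefore given with and without it. The hepatocyte markers, led by *ALB* and *TF*, summed to 43044 to 66304 FPKM in squalene pools and 38758 to 67441 FPKM in control pools, so the labelled tissue carried its defining transcripts.

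The promoters of the inducible genes are shown first, because the contrast between these genes and the constitutive ones is the comparison the gene set was chosen for. Each sequence covers 250 bases before and 50 bases after the annotated gene start in the pig genome (Sscrofa11.1, RefSeq annotation) and is written in the direction of the gene. Capitals mark matches, on either strand, to an interferon-stimulated response element written as GAAANNGAAA (ISRE-type), or, in *PSMB8*, to a gamma-activated site written as TTCNNNGAA (GAS-type). The windows are chr7:25071883-25072182 (plus strand) for *PSMB9*, chr6:28547560-28547859 (minus strand) for *PSMB10*, chr7:75164482-75164781 (minus strand) for *PSME1*, chr7:75154320-75154619 (plus strand) for *PSME2* and chr7:25061617-25061916 (minus strand) for *PSMB8*. *PSMA5*, an alpha ring gene at chr4:110695179-110695478 (plus strand), is printed for contrast.
PSMB9: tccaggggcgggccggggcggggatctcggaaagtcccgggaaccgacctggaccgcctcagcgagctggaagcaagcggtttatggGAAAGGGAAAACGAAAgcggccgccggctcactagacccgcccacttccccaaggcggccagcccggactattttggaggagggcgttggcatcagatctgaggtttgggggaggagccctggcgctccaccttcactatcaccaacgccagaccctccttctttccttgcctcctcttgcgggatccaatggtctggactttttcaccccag
PSMB10: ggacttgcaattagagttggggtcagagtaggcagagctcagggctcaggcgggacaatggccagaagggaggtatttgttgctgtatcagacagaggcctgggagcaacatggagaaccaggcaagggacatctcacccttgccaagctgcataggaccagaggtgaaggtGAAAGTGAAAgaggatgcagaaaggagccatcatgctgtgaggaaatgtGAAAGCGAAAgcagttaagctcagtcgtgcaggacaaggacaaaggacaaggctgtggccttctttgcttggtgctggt
PSME1: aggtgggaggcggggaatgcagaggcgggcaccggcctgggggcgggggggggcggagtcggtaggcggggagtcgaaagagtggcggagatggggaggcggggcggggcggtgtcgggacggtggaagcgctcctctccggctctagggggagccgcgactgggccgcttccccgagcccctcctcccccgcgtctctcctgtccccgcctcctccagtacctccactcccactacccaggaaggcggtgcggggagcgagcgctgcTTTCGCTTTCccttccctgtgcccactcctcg
PSME2: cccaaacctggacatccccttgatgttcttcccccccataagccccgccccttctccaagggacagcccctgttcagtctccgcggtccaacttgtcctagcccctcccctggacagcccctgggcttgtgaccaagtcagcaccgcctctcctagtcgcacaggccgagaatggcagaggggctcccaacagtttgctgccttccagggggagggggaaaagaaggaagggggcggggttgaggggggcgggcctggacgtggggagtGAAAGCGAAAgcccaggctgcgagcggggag
PSMB8: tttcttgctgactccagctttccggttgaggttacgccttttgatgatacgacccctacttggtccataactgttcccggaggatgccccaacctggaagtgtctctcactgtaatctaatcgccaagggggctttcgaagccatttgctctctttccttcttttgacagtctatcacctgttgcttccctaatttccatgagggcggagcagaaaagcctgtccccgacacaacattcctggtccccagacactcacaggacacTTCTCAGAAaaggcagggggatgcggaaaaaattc
PSMA5: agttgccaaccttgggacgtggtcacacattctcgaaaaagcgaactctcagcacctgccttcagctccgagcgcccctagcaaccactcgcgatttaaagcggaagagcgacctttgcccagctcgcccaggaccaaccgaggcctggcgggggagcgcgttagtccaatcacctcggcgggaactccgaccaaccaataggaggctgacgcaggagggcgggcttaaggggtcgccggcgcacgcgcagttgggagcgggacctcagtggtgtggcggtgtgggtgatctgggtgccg

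The ISRE-type letters occurred in 4 of the 5 inducible promoters (80%) and in 705 of all 20319 promoters of the same length (3.47%). *PSMB9* held overlapping matches that began 163 and 157 bases before its start, and *PSMB10* held matches 78 and 29 bases before its start. In *PSME1* and *PSME2* the match lay just inside the gene, at bases 19 and 20 after the start, on the strand opposite to the gene in *PSME1* and on the strand of the gene in *PSME2*. *PSMB8* had no ISRE-type match in this window and 1 GAS-type match at base 16. The GAS-type letters occurred in 6 of the 47 promoters (12.8%) and in 6.71% of all promoters. Besides *PSMB8* these were *PSMB6* and 4 of the 11 non-ATPase genes of the 19S particle, all outside the inducible set. None of the 7 alpha ring promoters held the ISRE-type letters. Among the 47 genes the only ISRE-type match outside the inducible set was that of *PSMC4*, a 19S ATPase gene, at 173 bases before its start. For scale, 14 of the 22 antiviral genes (63.6%) held the ISRE-type letters. The antioxidant response element written as TGACNNNGC (ARE-type), occurred in 5 of the 47 promoters (10.6%) and in 12.7% of all promoters, and in none of the inducible genes. These matches describe letters in the window and were not tested as binding sites.

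Of the inducible genes 4 lie in 2 neighbourhoods of chromosome 7. *PSMB8* (chr7:25058456-25061666, minus strand), *TAP1* (chr7:25062772-25071989, minus strand) and *PSMB9* (chr7:25072133-25077508, plus strand) are neighbours in the MHC region of chromosome 7. *TAP1* and *PSMB9* are transcribed away from each other with 143 bases between them, which lie within the *PSMB9* window printed above. *PSMB8* and *TAP1* are separated by 1105 bases. *PSME2* (chr7:75154570-75157871, plus strand) and *PSME1* (chr7:75161830-75164531, minus strand) face each other on the same chromosome with 3958 bases between them. *PSMB10* lies on chromosome 6 (chr6:28544910-28547609, minus strand).

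Proteasome transcripts were abundant, and together the 47 genes made up 0.398% to 0.498% of the summed FPKM in squalene pools and 0.373% to 0.444% in control pools. Their sum was 2826, 2321, 2445 and 2176 FPKM in squalene pools 1 to 4, against 2414, 2191, 2130 and 2236 FPKM in control pools 1 to 4. The diets overlapped, and squalene pool 1 had the highest sum. *PSME1* and *PSME2*, the subunits of the 11S activator, had the highest means of the 47 genes over the 8 pools (133 and 119 FPKM). *PSME4*, which encodes the PA200 activator, had the lowest mean of the true proteasome genes (5.63 FPKM), and *PSMC3IP* the lowest of all (1.01 FPKM).

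Levels also differed by role. In the alpha ring they ran between 34.7 FPKM for *PSMA3* and 108 FPKM for *PSMA6*, and in the constitutive beta ring between 51.8 FPKM for *PSMB5* and 107 FPKM for *PSMB7*, so the transcripts of subunits that enter the core in equal numbers were not equal. The ATPases of the 19S base, which unfold the substrate, lay between 33.8 FPKM for *PSMC6* and 61.4 FPKM for *PSMC3*. The other 19S subunits had a wider range, between 11.2 FPKM for *PSMD6* and 59.7 FPKM for *PSMD3*. Assembly chaperones were less abundant, with means of 11.02 to 20.7 FPKM for *PSMD10*, *PSMD9* and *PSMD5*, which help to build the 19S base, and 7.87 to 33.8 FPKM for the 20S chaperones *PSMG3* and *PSMG4* at the ends of their range.

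**Figure D1:**
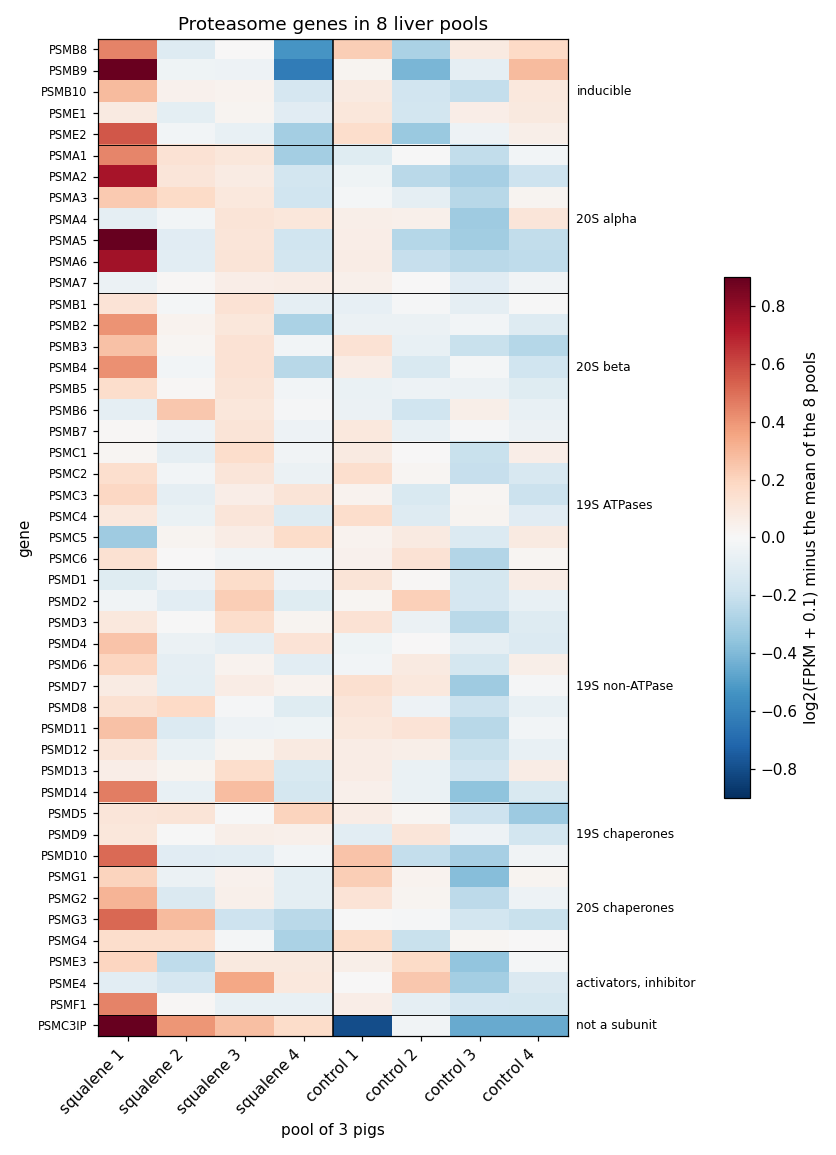
Each row is a gene grouped by role, each column a pool of 3 pigs (squalene pools on the left, control pools on the right), and the color is log2(FPKM + 0.1) minus the mean of that gene over the 8 pools, with the scale ending at 0.9 in either direction. Squalene pool 1 was the darkest red column, above all in *PSMC3IP*, *PSMA5*, *PSMB9*, *PSMA6* and *PSMA2*. The median deviation of the 17 19S subunit genes ran between −0.19 in control pool 3 and 0.11 in squalene pool 1.

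Squalene did not separate the proteasome genes from control beyond the spread between pools. In limma on log2(FPKM + 0.1), 0 of the 47 genes passed an adjusted p of 0.05, where 0 of the 14780 genes tested (0%) passed in either direction, and the smallest adjusted p of the 47 was 0.953. At an unadjusted p under 0.05 there was 1 of the 47 genes (2.13%), *PSMC3IP*, where 645 of all genes tested (4.36%) reached it. It was higher on squalene, as were 2.08% of all genes at that p, and none of the 47 was lower at that p, as 2.28% of all genes were. The median log2 fold change of the 47 genes was 0.09, beside −0.01 for all genes tested. The fitted fold change was above 0 in 42 of them (89.4%), where the share in all genes was 47.1%. Without squalene pool 1 it was above 0 in 36 of them (76.6%), where the share in all genes was 43.4%, and their median was 0.05, beside −0.03. Genes of 1 complex in the same pools are not independent, so these shares are descriptions without a test.

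Every squalene pool was on the same side of every control pool in 2 of the 47 genes (4.26%), both higher on squalene, where 1.13% of all genes tested were separated in that direction. No proteasome gene was separated in the other direction, where 1.54% of all genes were. *PSMB5*, which encodes the constitutive chymotrypsin-like subunit, was 1 of the 2. It had 57.82, 52.18, 55.97 and 50.76 FPKM in squalene pools 1 to 4, against 49.74, 50.21, 49.97 and 48.01 FPKM in control pools 1 to 4. The lowest squalene pool was thus just above the highest control pool. The log2 fold change was 0.13 ± 0.08 (SE, limma), and its adjusted p was 0.9997.

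*PSMC3IP* was the other. It had 1.85, 1.27, 1.16 and 1.07 FPKM in squalene pools 1 to 4, against 0.50, 0.92, 0.66 and 0.66 FPKM in control pools 1 to 4. Every squalene pool was above every control pool, at a level near 1 FPKM. The means were 1.34 ± 0.351 FPKM in squalene and 0.685 ± 0.174 FPKM in control (SD, n = 4 pools each), and the log2 fold change of 0.87 ± 0.21 (SE) had an unadjusted p of 0.00232 and an adjusted p of 0.953 in limma. Without squalene pool 1 the log2 fold change was 0.71, with an unadjusted p of 0.00606 in limma. Behind these levels stood 128 estimated fragments over the 4 squalene pools and 66.6 over the 4 control pools in the deposited added counts. The gene with the lowest p of the set was therefore *PSMC3IP*, whose product is not a proteasome subunit.

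**Figure D2:**
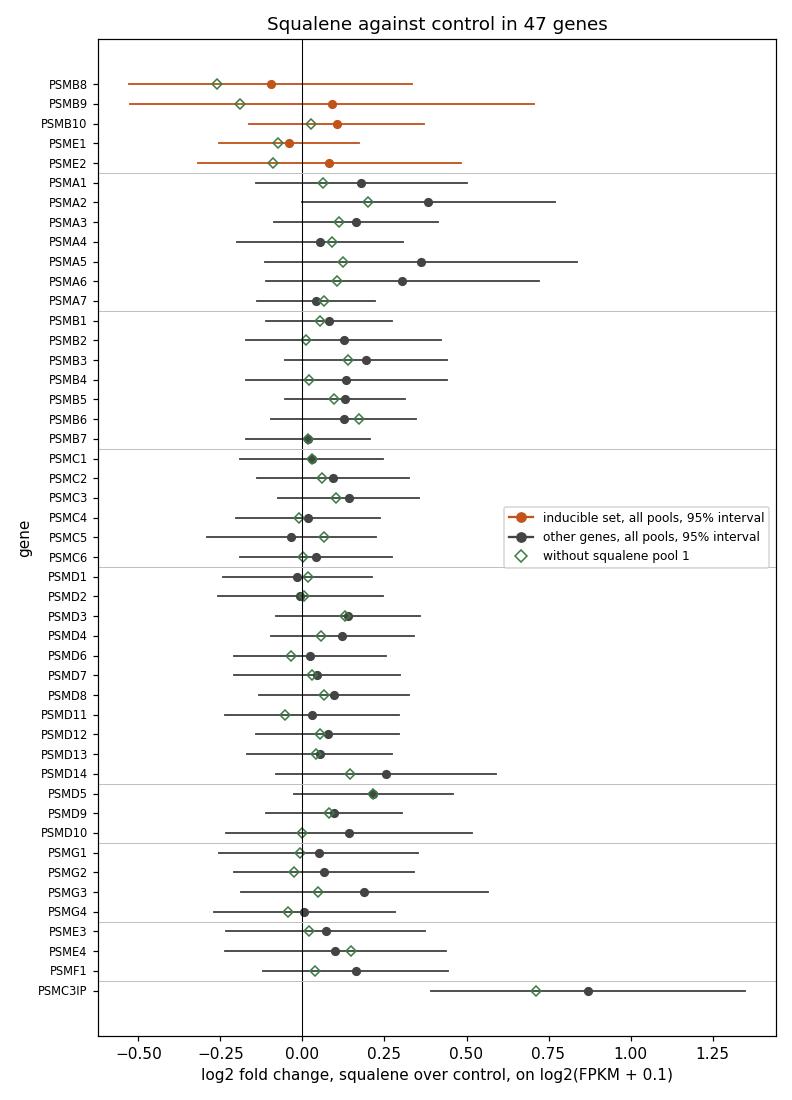
Points are log2 fold changes of squalene over control for the 47 genes with their 95% limma intervals (orange for the inducible set, dark grey for the rest), and open diamonds are the values without squalene pool 1. Apart from *PSMC3IP* every interval included 0, and in 9 genes (*PSMB9*, *PSME2*, *PSMC4*, *PSMD6*, *PSMD10*, *PSMD11*, *PSMG1*, *PSMG2* and *PSMG4*) the diamond lay below 0 where the point lay above it.

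The inducible set showed no common direction between the diets. The log2 fold change was above 0 in 3 of the 5 genes with all pools and in 1 of the 5 without squalene pool 1, and the median was 0.08 and −0.09. None of the 5 passed the test. Their spread between pools of the same diet was unequal. The residual SD on the log2 scale was 0.49 for *PSMB9*, 0.33 for *PSMB8*, 0.30 for *PSME2*, 0.17 for *PSMB10* and 0.11 for *PSME1*, beside medians of 0.16 over the 47 genes and 0.23 over all genes tested. The alpha ring genes *PSMA5*, *PSMA6* and *PSMA2* spread as widely as *PSMB8* and *PSME2*, at 0.37, 0.31 and 0.29.

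*PSMB8*, the inducible chymotrypsin-like subunit that takes the place of *PSMB5*, had 50.75, 34.43, 37.48 and 25.81 FPKM in squalene pools 1 to 4, against 43.43, 30.56, 39.47 and 42.31 FPKM in control pools 1 to 4. Squalene pools held both the highest and the lowest value, and the control pools lay between them. The log2 fold change was −0.10 with all pools, with a 95% limma interval of −0.53 to 0.33. It was −0.26 without squalene pool 1 and 0.06 without squalene pool 4.

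*PSMB9*, which takes the place of *PSMB6*, had 47.41, 24.98, 24.83 and 16.53 FPKM in squalene pools 1 to 4, against 26.02, 19.26, 24.19 and 31.27 FPKM in control pools 1 to 4. It was the most variable of the 5. Squalene pool 1 stood far above the rest, squalene pool 4 was the lowest, and control pool 4 was the second highest. The log2 fold change was 0.09 (95% interval −0.53 to 0.71) with all pools and −0.19 without squalene pool 1, and it was −0.03 without control pool 2.

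*PSMB10*, which takes the place of *PSMB7*, had 65.89, 55.49, 55.21 and 48.53 FPKM in squalene pools 1 to 4, against 57.06, 47.88, 46.61 and 57.67 FPKM in control pools 1 to 4. The order of the pools resembled that of *PSMB9* with a smaller spread. Its log2 fold change was 0.10 (95% interval −0.16 to 0.37) with all pools and 0.03 without squalene pool 1.

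The activator genes had unequal spreads. *PSME1* had 140.23, 125.05, 134.73 and 123.63 FPKM in squalene pools 1 to 4, against 142.44, 118.22, 138.44 and 140.69 FPKM in control pools 1 to 4, with a log2 fold change of −0.04 (95% interval −0.25 to 0.17). *PSME2*, its partner in the same ring, had 172.39, 115.04, 111.96 and 94.57 FPKM in squalene pools 1 to 4, against 130.69, 92.91, 113.44 and 121.41 FPKM in control pools 1 to 4. *PSME2* was highest in squalene pool 1 and *PSME1* was not. For *PSME2* the log2 fold change was 0.08 (95% interval −0.32 to 0.48) with all pools and −0.09 without squalene pool 1, and it was −0.02 without control pool 2. The ratio of *PSME2* to *PSME1* was 1.23 in squalene pool 1 and 0.765 to 0.920 in the other squalene pools, against 0.786 to 0.918 in the control pools.

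**Figure D3:**
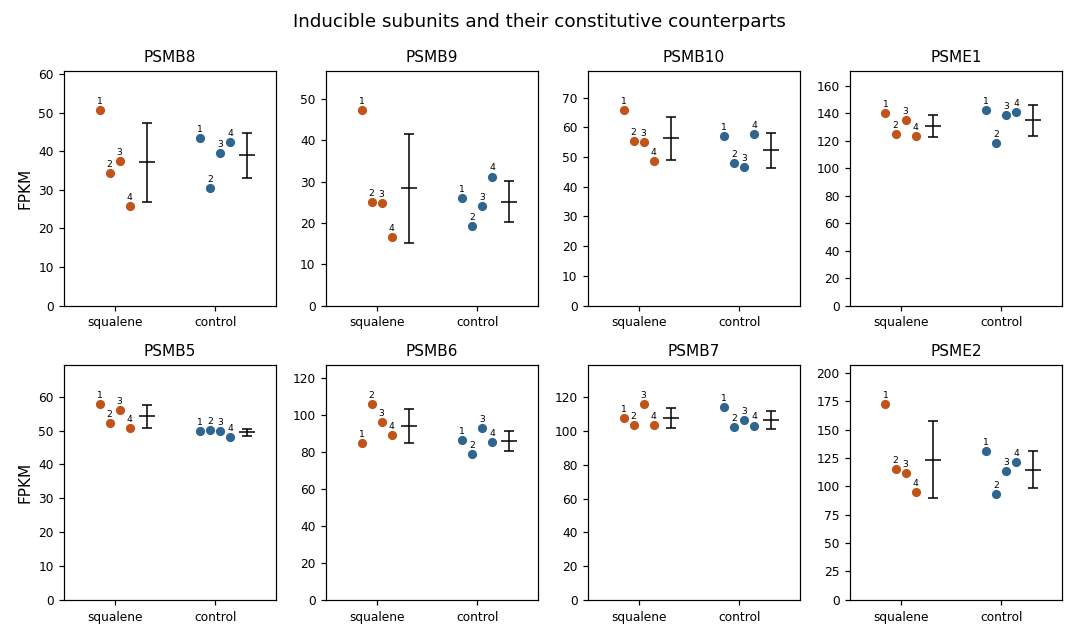
FPKM in each pool (numbered points, squalene in orange on the left and control in blue on the right of each panel) with the mean and SD of the 4 pools of a diet as black bars, for the 3 inducible catalytic genes, the constitutive genes they replace (*PSMB5*, *PSMB6* and *PSMB7*) and the activator genes *PSME1* and *PSME2*. *PSMB9* spread most within a diet, with squalene pool 1 at 47.41 FPKM and squalene pool 4 at 16.53 FPKM for *PSMB9*, whereas *PSMB5* stayed between 48.01 and 57.82 FPKM.

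The constitutive counterparts were steadier. *PSMB6* had 84.70, 105.92, 95.99 and 89.07 FPKM in squalene pools 1 to 4, against 86.33, 79.05, 92.74 and 85.62 FPKM in control pools 1 to 4 (log2 fold change 0.13). *PSMB7* had 107.61, 103.63, 115.91 and 103.77 FPKM in squalene pools 1 to 4, against 114.21, 102.28, 106.38 and 103.25 FPKM in control pools 1 to 4 (log2 fold change 0.02). For both genes the diets overlapped, and squalene pool 1 was not the highest of the 8 pools. The fitted value of *PSMB7* was −0.02 without squalene pool 3.

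The balance between the inducible and the constitutive subunits was then compared within each pool, where depth and total RNA cancel. The mean log2 level of the 5 inducible genes minus that of the 14 constitutive core genes was −0.20, −0.42, −0.46 and −0.58 in squalene pools 1 to 4, against −0.24, −0.53, −0.24 and −0.11 in control pools 1 to 4. The diets overlapped, with means of −0.41 ± 0.16 in squalene and −0.28 ± 0.18 in control (SD, n = 4 pools each), a difference of −0.14. Without squalene pool 1 the difference was −0.21, and leaving out each pool in turn gave −0.22 to −0.08. In this balance squalene pool 1 was the highest of the squalene pools and control pool 4 the highest of all. Set against all other subunits of the 20S core and 19S particle instead, the difference was −0.08, and squalene pool 1 was the highest of all at 0.56, against 0.51 in control pool 4.

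The catalytic and activator genes gave differences of the same size. For *PSMB8*, *PSMB9* and *PSMB10* alone the balance against the constitutive core was −0.80, −1.11, −1.15 and −1.37 in squalene pools 1 to 4, against −0.94, −1.24, −0.96 and −0.76 in control pools 1 to 4 (difference −0.13). For *PSME1* and *PSME2* alone it was 0.72, 0.61, 0.57 and 0.61 in squalene pools 1 to 4, against 0.82, 0.54, 0.86 and 0.86 in control pools 1 to 4 (difference −0.14). Control pools 1, 3 and 4 were above every squalene pool in this measure, and control pool 2 was below every squalene pool.

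Each inducible catalytic transcript was less abundant than the one it replaces. The ratio of *PSMB8* to *PSMB5* was 0.878, 0.660, 0.670 and 0.508 in squalene pools 1 to 4, against 0.873, 0.609, 0.790 and 0.881 in control pools 1 to 4. For *PSMB9* to *PSMB6* it was 0.560, 0.236, 0.259 and 0.186 in squalene pools 1 to 4, against 0.301, 0.244, 0.261 and 0.365 in control pools 1 to 4. For *PSMB10* to *PSMB7* it was 0.612, 0.535, 0.476 and 0.468 in squalene pools 1 to 4, against 0.500, 0.468, 0.438 and 0.559 in control pools 1 to 4. All 3 ratios were below 1 in all 8 pools and overlapped between the diets. Squalene pool 1 had the highest *PSMB9* and *PSMB10* ratios of the 8 pools, squalene pool 4 the lowest *PSMB8* and *PSMB9* ratios, and the *PSMB9* ratio differed 3-fold between these 2 pools of the same diet.

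Values of other cells and pathways stand beside these results. In bulk liver RNA, fewer cells of a type and less RNA per cell cannot be told apart. Relative to each gene's own mean over the pools, the median log2 deviation of the inducible set was 0.44, −0.04, 0.01 and −0.31 in squalene pools 1 to 4, against 0.10, −0.29, −0.04 and 0.10 in control pools 1 to 4. That of the 22 antiviral genes was 1.49, −0.07, −0.10 and −0.46 in squalene pools 1 to 4, against 0.32, −0.26, −0.46 and −0.45 in control pools 1 to 4. Both were highest in squalene pool 1. They parted in control pool 4, where the inducible set was above its mean and the antiviral genes were among the lowest.

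Immune cell markers were present in every pool. The 14 T and NK cell markers, led by *CCL5* and *NKG7*, summed to 198, 146, 169 and 126 FPKM in squalene pools 1 to 4, against 146, 149, 170 and 165 FPKM in control pools 1 to 4. Squalene pools 1 and 4 had the highest and the lowest sum. In squalene pool 1 *CCL5* alone was at 95.24 FPKM. That pool was the highest in 5 of the 15 rows of these markers, and not for *CD3D*, *CD3E*, *CD3G*, *CD4*, *CD8A* or *CD8B*. The 14 macrophage markers, led by *C1QB* and *C1QC*, summed to 1674 to 1983 FPKM in squalene pools and 1692 to 2109 FPKM in control pools. The 8 B and plasma cell markers, led by *JCHAIN* and *MZB1*, summed to 16.1 to 25.7 FPKM in squalene pools and 17.9 to 26.7 FPKM in control pools. Among these 36 markers *TNFRSF17*, a plasma cell gene, was listed at 0 in control pool 2, and no marker was at 0 in all pools. The part of these cells in the inducible genes was not tested.

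The genes whose pattern over the 8 pools lay closest to the mean pattern of *PSMB8*, *PSMB9* and *PSMB10*, among 10994 genes of at least 1 FPKM, were *LOC110258310*, *MFSD14B*, *FCN2*, *ATP1B3* and *TUBB*. Their root mean square distance in log2 units was 0.07 for *LOC110258310*, annotated as a homologue of a hibernation-associated plasma protein, 0.09 for *MFSD14B*, *FCN2* and *ATP1B3* and 0.10 for *TUBB*. *FCN2* encodes a plasma lectin of the complement system. It had 101.67, 66.29, 79.94 and 54.22 FPKM in squalene pools 1 to 4, against 81.91, 59.01, 79.10 and 85.13 FPKM in control pools 1 to 4. None of these 5 genes was an interferon-stimulated gene of the antiviral list. The distance counts the size of the deviations as well as their order. In squalene pool 1 the median deviation was 1.49 for the antiviral genes and 0.44 for the inducible set. The distance therefore cannot show whether the antiviral genes follow the same pattern at a larger size.

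The alpha ring, whose genes form the outer gate of the core, held 3 of the 6 genes that stood furthest above the other pools in squalene pool 1. The fitted fold change was positive in all 7 genes. Its median on the log2 scale was 0.18, or 0.10 without squalene pool 1, and none of the 7 passed the test. The genes did not share 1 pattern. *PSMA2* had 160.26, 103.43, 100.99 and 85.43 FPKM in squalene pools 1 to 4, against 93.17, 80.76, 77.78 and 84.20 FPKM in control pools 1 to 4. Squalene pools 1, 2 and 3 were above every control pool and squalene pool 4 was not. Its log2 fold change was 0.38 ± 0.17 (SE, limma, adjusted p 0.9997) with all pools and 0.20 without squalene pool 1.

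*PSMA6* and *PSMA5*, described in addition because their values in squalene pool 1 stood out, had a similar pattern. *PSMA6* had 176.74, 98.15, 113.55 and 93.37 FPKM in squalene pools 1 to 4, against 109.92, 90.80, 88.65 and 89.20 FPKM in control pools 1 to 4. *PSMA5* had 134.84, 67.61, 78.22 and 63.88 FPKM in squalene pools 1 to 4, against 75.69, 60.71, 58.44 and 62.29 FPKM in control pools 1 to 4. The value of squalene pool 1 was 1.79 times the mean of the other 7 pools for *PSMA2*, 1.81 times for *PSMA6* and 2.02 times for *PSMA5*. Without that pool the log2 fold change of *PSMA6* was 0.10 in place of 0.30, and that of *PSMA5* was 0.12 in place of 0.36.

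The other alpha ring genes did not share the excess. *PSMA7* had 84.34, 88.09, 91.03 and 91.46 FPKM in squalene pools 1 to 4, against 90.10, 87.81, 81.52 and 85.75 FPKM in control pools 1 to 4. *PSMA4* had 52.77, 54.92, 60.51 and 60.00 FPKM in squalene pools 1 to 4, against 58.14, 57.82, 44.70 and 60.43 FPKM in control pools 1 to 4. In both genes squalene pool 1 was the lowest of the squalene pools. *PSMA1* and *PSMA3* were in between, with 92.07 and 40.67 FPKM in squalene pool 1 as their highest values of the 8 pools.

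A ratio of the mean FPKM of *PSMA2*, *PSMA5* and *PSMA6* to that of *PSMA1*, *PSMA3*, *PSMA4* and *PSMA7*, which was formed after these values were seen, was 2.33, 1.40, 1.49 and 1.37 in squalene pools 1 to 4, against 1.51, 1.26, 1.40 and 1.27 in control pools 1 to 4. The 7 products enter the same ring in equal numbers, so the unequal transcripts in squalene pool 1 describe RNA only. *PSMA2*, *PSMA5* and *PSMA6* lie on chromosomes 18, 4 and 7, and no ISRE-type match was found in their promoters, of which that of *PSMA5* is printed above. Such a match was held by 3.47% of all promoters and by 14 of the 22 antiviral genes. Why this pool was high was not tested.

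**Figure D4:**
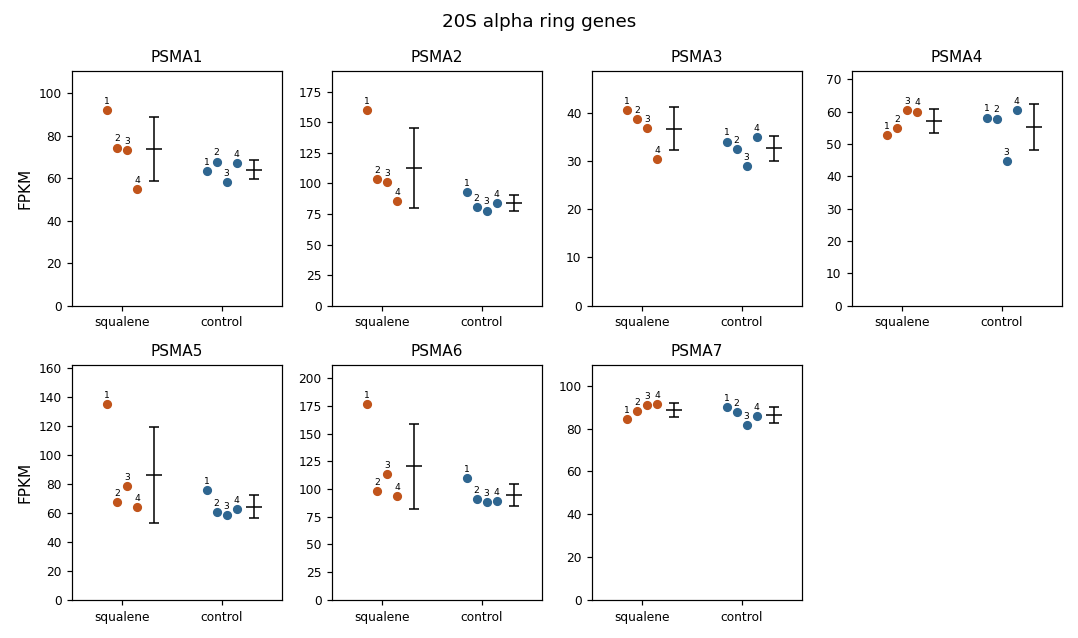
FPKM of the 7 alpha ring genes in each pool (numbered points, squalene in orange on the left and control in blue on the right of each panel), with the mean and SD of the 4 pools of a diet as black bars. Squalene pool 1 lay far above the rest for *PSMA2* (160.26), *PSMA5* (134.84) and *PSMA6* (176.74 FPKM) and among the lower pools for *PSMA4* and *PSMA7*.

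In all, squalene pool 1 was the highest of the 8 pools in 27 of the 47 genes (57.4%), where this held for 21.2% of all genes tested. It exceeded 1.5 times the mean of the other 7 pools in 6 of the 47 genes (12.8%), where 9.16% of all genes did. These 6 were *PSMA2*, *PSMA5*, *PSMA6*, *PSMB9*, *PSME2* and *PSMC3IP*. The excess was thus frequent in the set and mostly small. Control pool 3 lay about as far on the other side. The median log2 deviation of the 47 genes from their own means was 0.19 in squalene pool 1 and −0.19 in control pool 3. For all genes tested it was 0.04 and −0.07. The median log2 fold change of the 47 genes was 0.05 without squalene pool 1 and 0.05 without control pool 3, beside −0.03 and −0.04 for all genes tested.

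In the constitutive beta ring as a whole, each of the 7 was fitted higher on squalene. The median log2 fold change was 0.13, or 0.05 without squalene pool 1, and the median residual SD was 0.12. *PSMB2* and *PSMB4* spread more than *PSMB5*, *PSMB6* and *PSMB7*. *PSMB4* had 127.72, 94.62, 105.45 and 80.71 FPKM in squalene pools 1 to 4, against 100.51, 87.59, 95.02 and 84.98 FPKM in control pools 1 to 4. *PSMB2* had 102.19, 78.98, 82.64 and 63.18 FPKM in squalene pools 1 to 4, against 74.24, 74.19, 75.77 and 71.17 FPKM in control pools 1 to 4. In both, squalene pool 1 was the highest and squalene pool 4 the lowest of the 8 pools, and without squalene pool 1 their log2 fold changes were 0.02 and 0.01. *PSMB3*, a structural beta subunit without a catalytic site, had the smallest p among them. It had 98.77, 83.24, 90.12 and 80.98 FPKM in squalene pools 1 to 4, against 90.23, 78.59, 71.59 and 69.03 FPKM in control pools 1 to 4. The diets overlapped, and the log2 fold change was 0.19 ± 0.11 (SE, limma, adjusted p 0.9997).

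The genes of the 19S particle, like the others, gave no call between the diets. Of its 17 subunit genes 14 were fitted higher on squalene with all pools, and the median log2 fold change was 0.04. Without squalene pool 1 the count and the median were the same but the genes were not, since 11 were above 0 in both fits, *PSMC4*, *PSMD6* and *PSMD11* dropped below 0 and *PSMC5*, *PSMD1* and *PSMD2* came above it. The highest was 0.25, or 0.14 without squalene pool 1, for *PSMD14*, the deubiquitinase that cuts ubiquitin chains from substrates. *PSMD14* had 27.57, 19.15, 24.30 and 17.98 FPKM in squalene pools 1 to 4, against 20.71, 19.28, 15.60 and 18.21 FPKM in control pools 1 to 4, with overlap. *PSMD3*, the most abundant 19S subunit outside the ATPases, had 63.66, 59.34, 66.23 and 60.57 FPKM in squalene pools 1 to 4, against 65.06, 57.32, 50.34 and 54.88 FPKM in control pools 1 to 4.

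The 3 subunits with a fitted value below 0 outside the inducible set all belonged to the 19S particle. *PSMC5*, an ATPase of the base, had 43.70, 55.39, 57.04 and 61.11 FPKM in squalene pools 1 to 4, against 55.61, 57.70, 50.11 and 57.62 FPKM in control pools 1 to 4. Here squalene pool 1 was the lowest of the 8 pools, the reverse of its place in most genes of the set. The log2 fold change of *PSMC5* was −0.03, and that without squalene pool 1 was 0.07. *PSMD1* and *PSMD2*, the large scaffold subunits of the base, had log2 fold changes of −0.02 and −0.01.

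*PSMD1* had 17.07, 17.83, 20.70 and 17.83 FPKM in squalene pools 1 to 4, against 19.96, 18.52, 16.46 and 19.28 FPKM in control pools 1 to 4. *PSMD2* had 33.90, 32.50, 40.43 and 32.04 FPKM in squalene pools 1 to 4, against 35.01, 40.20, 31.22 and 33.04 FPKM in control pools 1 to 4. Both genes varied more within a diet than between the diets, and without control pool 1 the fitted value of *PSMD1* was 0.02, and without control pool 2 that of *PSMD2* was 0.06.

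Among the chaperones, *PSMD5*, which holds the 19S ATPases during assembly, had the smallest p after *PSMC3IP* and *PSMA2*. It had 22.23, 22.33, 20.56 and 23.68 FPKM in squalene pools 1 to 4, against 21.49, 20.84, 18.07 and 16.34 FPKM in control pools 1 to 4. Squalene pool 3 lay below control pools 1 and 2, so the diets overlapped. The log2 fold change was 0.22 ± 0.11 (SE, limma, adjusted p 0.9997), and it was 0.22 without squalene pool 1 as well. The 4 chaperones of the 20S core, *PSMG1* to *PSMG4*, had a median log2 fold change of 0.06, and of −0.02 without squalene pool 1.

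Of the other regulators, *PSMF1*, an inhibitor of the core, had 69.65, 51.25, 48.63 and 48.79 FPKM in squalene pools 1 to 4, against 53.12, 48.31, 45.97 and 45.80 FPKM in control pools 1 to 4 (log2 fold change 0.16, and 0.04 without squalene pool 1). *PSME3*, the nuclear activator that interferon does not raise in the way it raises *PSME1* and *PSME2*, had 23.27, 17.37, 21.69 and 21.67 FPKM in squalene pools 1 to 4, against 21.17, 23.00, 15.88 and 20.16 FPKM in control pools 1 to 4 (log2 fold change 0.07, and 0.02 without squalene pool 1). *PSME4* had 5.22, 5.01, 7.10 and 5.96 FPKM in squalene pools 1 to 4, against 5.57, 6.59, 4.48 and 5.07 FPKM in control pools 1 to 4 (log2 fold change 0.10). The diets overlapped for all 3 genes, and squalene pool 1 was the highest pool for *PSMF1* and *PSME3* and not for *PSME4*. Without control pool 3 the fitted value of *PSME3* was −0.04.

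The genes that work with the proteasome but carry other symbols, such as ubiquitin genes, assembly factors and the transcription factor *NFE2L1*, differed as little between the diets. Of 25 tested, 0 passed the test, 9 were fitted higher on squalene, and the median log2 fold change was −0.02. The smallest p belonged to *RPS27A*, a gene for a fusion of ubiquitin and a ribosomal protein. It had 709.73, 774.11, 817.51 and 612.63 FPKM in squalene pools 1 to 4, against 909.10, 739.34, 942.98 and 1009 FPKM in control pools 1 to 4, with a log2 fold change of −0.30 and an adjusted p of 0.9997 in limma. *AKIRIN2*, a factor for nuclear import of proteasomes, and the ubiquitin gene *UBB* had log2 fold changes of −0.14 and 0.14. *NFE2L1*, which drives the coordinated transcription of proteasome genes when the protease is inhibited, had 26.94, 26.92, 37.61 and 32.29 FPKM in squalene pools 1 to 4, against 34.66, 38.38, 27.37 and 28.64 FPKM in control pools 1 to 4. Its lowest values were in squalene pools 1 and 2.

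The 16 rows of peptide loading genes and their regulators had a median log2 fold change of 0.05, and of −0.13 without squalene pool 1, and 0 passed the test. *TAP1*, the transporter gene that shares its upstream region with *PSMB9*, had 40.48, 20.63, 25.41 and 11.86 FPKM in squalene pools 1 to 4, against 22.16, 16.73, 20.99 and 18.35 FPKM in control pools 1 to 4. As in *PSMB9*, squalene pool 1 was the highest and squalene pool 4 the lowest. Control pool 4, the second highest of the 8 pools for *PSMB9*, was the third lowest for *TAP1*. The smallest p in this list was that of 1 of the 2 *B2M* rows, the light chain of MHC class I. It had 672.01, 617.63, 622.77 and 358.92 FPKM in squalene pools 1 to 4, against 793.37, 611.49, 961.02 and 688.34 FPKM in control pools 1 to 4 (log2 fold change −0.45, limma adjusted p 0.9997). The other *B2M* row was more abundant, with a mean of 2089 FPKM over the pools. Its log2 fold change was 0.09, the opposite direction, and its highest value was 2717 FPKM in squalene pool 1. The *B2M* rows could have shared reads with each other, so their levels are uncertain. *CANX* and *ERAP1* had log2 fold changes of −0.15 and −0.14.

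Other readouts of the same genes were few. The deposited tables of alternative splice sites, skipped exons and mutually exclusive exons that differed between the diets listed 0 of the 47 genes. Retained introns were not checked. The table of single nucleotide polymorphism (SNP) sites, which gives 1 called base per site and pool, placed 425 of its 269579 sites within 45 of the 47 genes, of which 150 lay in exons and 74 in coding sequence. *PSMB8* held 12 sites, 10 of them exonic and 3 coding, and *PSMB9* held 10 sites, 6 of them exonic and 4 coding. *PSMA2* held 48 sites, none of them exonic, and *PSMD10* and *PSME1* held none. At the *PSMB8* sites the called base differed from the reference at 8, 6, 10 and 9 sites in squalene pools 1 to 4, against 9, 10, 9 and 10 sites in control pools 1 to 4. At the *PSMB9* sites it differed at 9, 5, 6 and 5 sites in squalene pools 1 to 4, against 7, 8, 8 and 7 sites in control pools 1 to 4. A call needs reads, so the number of sites called in a pool also depends on the level of the gene there, and the diets were not tested at these sites.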

How the data were processed

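RNA from the livers of 24 pigs was combined by the authors into 8 pools of 3, enriched with oligo-dT beads, sequenced on the DNBSEQ platform and mapped to Sscrofa11.1 with HISAT2, and neither its version nor the step to expression values is given in the sources used here. FPKM of each gene in each pool were deposited by the authors with 2 decimals. Each diet's estimated counts were summed by the authors across its 4 pools and deposited beside DEGseq fold changes and p-values, and of these columns only the summed counts and gene lengths were used, to estimate depth and to give the fragments behind *PSMC3IP*. The deposited SNP tables give, for each pool, the called base letter.

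The diets were compared with limma 3.58.1 in R 4.3.3 (lmFit, eBayes, variance trend) applied to log2(FPKM + 0.1). Genes averaging 0.1 FPKM or more, 14780 in number, entered the fit, and p-values were adjusted over all of them by Benjamini-Hochberg. The added 0.1 shrinks the fold changes of weakly expressed genes. Since FPKM carry no read counts per pool, no count model and no counting interval were used. The test, tested on simulated data of the same 14780 genes, recovered 24.8% of 1.5-fold and 63.6% of 2-fold changes. In each simulation many genes were changed at once, by 1.5, 2, 4 or 8-fold, with independent noise and no effect shared by the genes of a pool. The adjusted threshold is stricter where fewer genes change, so these shares can overstate the recovery in the real data. Pools hold different animals, and p-values measure the spread between pools of 3 and not between single pigs. Pool numbers did not pair the diets (correlations of same-numbered pools −0.07 to 0.09).

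Genes were named by a rule: the inducible set, its counterparts and the other activators, the 4 further members of smallest p in each direction, the extremes of level in each role, the 4 partners and 4 peptide loading genes of smallest p, the 2 most abundant genes of each other list, and the 5 genes nearest in pattern. *PSMA5*, *PSMA7*, *PSMA4*, *PSMA1*, *PSMB2*, *PSMB4*, *PSMC4*, *PSMD11*, *PSMD14*, *NFE2L1* and *TAP1* were added after their values were seen, and 1 gene that the rule named is not reported here. The members, lists and tests were chosen with earlier results of these data known. Promoters were read from the genome with Python 3.11.15, of which pandas 2.3.3, numpy 2.4.6 and matplotlib 3.10.9 were used. Alternatives covered pseudocount, filter, scaling, the variance trend, a pool-number block and each pool left out. *PSMA8* and *PSMB11* are annotated in Sscrofa11.1 and were not analysed here.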

Additional observations from a re-analysis of the deposited data

Results flagged for a closer look

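Among 116 groups of 4 pools, 6 had 1 pool set apart from the others. Its distance to the nearest of them, divided by the range of the 4 values, exceeded the 95% critical value of Dixon for 4 values. Chance gives about 1 in 20 such groups. Some groups were balances formed from the same genes, so the groups are not independent. Of the 6 flagged, 2 were in squalene pool 1. *PSMF1* was at 69.65 FPKM there, with the other squalene pools at 48.63 to 51.25 FPKM. *PSMD10*, an assembly chaperone of the 19S base also known as gankyrin, was at 15.46 FPKM there, with the other squalene pools at 10.10 to 10.66 FPKM.

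The other 4 were in control pools. *PSMA6* was at 109.92 FPKM in control pool 1, with the other control pools at 88.65 to 90.80 FPKM. *PSME1* was at 118.22 FPKM in control pool 2, with the others at 138.44 to 142.44 FPKM, and in the same pool the log2 level of *PSME1* and *PSME2* minus that of the constitutive core was 0.54, with the others at 0.82 to 0.86. *PSMA4* was at 44.70 FPKM in control pool 3, with the others at 57.82 to 60.43 FPKM. What set these pools apart was not tested.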

How the results depend on the processing

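In 21 member genes and 17 alternatives each (357 values), 0 passed the adjusted threshold in limma, the smallest adjusted p was 0.789 and the sign of the log2 fold change turned 17 times in 8 genes. Of these turns 1 was *PSMD2* at 0.0016 after rescaling to TPM, and the others came from leaving out 1 pool, over which the value ran between −0.26 and 0.063 for *PSMB8*, −0.19 and 0.31 for *PSMB9*, −0.091 and 0.20 for *PSME2*, −0.020 and 0.050 for *PSMB7*, −0.036 and 0.16 for *PSME3*, −0.094 and 0.067 for *PSMC5*, −0.074 and 0.021 for *PSMD1*, and −0.081 and 0.064 for *PSMD2*. Of all genes tested, 1 passed without a variance trend, and 0 to 1 passed when a pool was left out (1 without control pool 2). The members with an unadjusted p under 0.05 numbered 1 of 47 in the test as reported (4.36% of all genes), 2 as TPM (4.09%), 4 with equal medians (4.89%) and 1 to 5 when a pool was left out (3.1% to 5.24%), with 4 without control pool 1 (4.33%) and 5 without squalene pool 4 (4.65%). With the pool number as a replicate block 0 members and 0 of all genes passed, and 4 members and 747 genes (5.05%), in place of 1 and 645, reached that p.

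When a pool was left out, the balance of the inducible set against the constitutive core stayed between −0.22 and −0.08, and the log2 ratio of squalene over control between −0.36 and −0.10 for *PSMB8* to *PSMB5*, −0.37 and 0.17 for *PSMB9* to *PSMB6*, and 0.01 and 0.15 for *PSMB10* to *PSMB7*. The median log2 fold change stayed between 0.05 and 0.13 for the 47 genes and turned between −0.09 and 0.17 for the inducible set, and the alpha ring median of 0.10 without squalene pool 1 was added after seeing the data. With 4 pools per diet, 24.8% of 1.5-fold changes were recovered in the data simulated over all genes tested, where many genes were changed at once. The median residual SD of those genes was 0.23 on the log2 scale, beside 0.16 for the 47 genes, and recovery among the 47 genes alone was not simulated. FPKM carry no depth per gene.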
